A study of Rattus norvegicus with 145 samples.

Results

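In experiment A of a rat study of acetamide, a small amide found in many foods that gives liver tumours in rats at high doses, 5 male rats gavaged with 1000 mg/kg/day (mkd) were compared on day 8 with 5 given water alone. These 10 rats were taken by the dose in their labels, out of 145 rats in the series, and all genes counted in their livers were considered. They were Hsd:WI males aged 9 to 10 weeks, dosed once a day for 7 days and fasted overnight before sacrifice, and RNA was taken from the left liver lobe. Another 15 rats of the same experiment received 30, 100 or 300 mkd, with 5 in each group. A separate experiment B gave 1000 mkd or water for 7 days to Crl:WI males aged 8 to 10 weeks, with 5 rats in each group.

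Most hepatocytes of an adult liver are out of the cell cycle, and they make plasma proteins, cholesterol and bile acids, burn fatty acids and break down amino acids and drugs. When cells re-enter the cycle, E2F factors switch on genes of DNA replication, and B-Myb and FoxM1 switch on genes of mitosis, many of which carry a cell cycle homology region in their promoters. Interferons signal through JAK kinases and STAT factors to a response element in the promoters of antiviral genes, and in liver both hepatocytes and immune cells answer to them.

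Each of the 10 libraries held 26596588 to 37001581 reads on genes, and 11323 of 17337 genes had enough reads to be tested. Values per rat are given as CPM, which are read counts scaled to the size of the library and by TMM, so that libraries can be compared, and rats are numbered 1 to 5 within a group by the replicate in their labels. A gene was called where the |fold change| was at least 1.5 and the FDR was at most 0.05 in the quasi-likelihood test of edgeR over the 25 rats of the experiment. At 1000 mkd 2424 genes were called, which is 21.4% of those tested, with 1580 higher (14.0%) and 844 lower (7.45%). Counts of group members called below are to be read beside these shares of all genes. Without treated rat 2, 1195 genes were called higher and 460 lower. All 5 treated rats lay above all 5 controls for 867 of the 1580 and below them for 435 of the 844. Over all genes tested the groups were apart in this way for 9.01% upward and 7.22% downward. The treated libraries differed from the controls in make-up, since the TMM factor was 1.12, 1.91, 1.06, 1.41 and 1.47 in treated rats 1 to 5 and 0.856 to 0.976 in the controls. When the counts were scaled by library size alone, the median log2 fold change of all genes became 0.58 in place of 0.00 and the calls became 5140 higher and 150 lower. All directions below are therefore relative to the median gene, and where library size alone turns the sign of the median of a gene group, that is said beside the group. The genes named are those with the largest changes in each group among genes whose groups did not overlap, and genes tied to known ways of liver injury. Some others were added after their values were seen. A signed value given for a gene or in brackets after it is its log2 fold change at 1000 mkd against vehicle, unless another comparison is named.

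The treated rats also differed among themselves. On the first principal component of the 25 rats, which held 36.6% of the variance, the controls lay between -18.3 and -5.99 and the treated rats at 27.8, 95.9, 24.7, 73.3 and 59.8. Treated rats 2, 4 and 5 were thus far from the controls, and rats 1 and 3 lay closer to them. Where 1 rat decides a value below, it is named.

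The tissue carried the markers of liver. All 10 hepatocyte markers looked for were tested, and together they took 241682 to 335247 CPM in the controls and 75578 to 232676 CPM in the treated rats, in which 4 of the 10 were called lower (Alb, Ttr, Apob and Fgb) and none higher. Alb, which encodes albumin, was read at 175406 to 253082 CPM in the controls and at 143999, 45024, 164266, 89029 and 84901 CPM in treated rats 1 to 5, a log2 fold change of -0.91 (SE 0.27, FDR = 0.0132 with edgeR). Every treated rat was below every control for Alb, and rat 2 was the lowest. The call was not made with library size alone or when the other dose groups were left out of the fit. Of the 10 markers 7 were called lower without treated rat 1, 2 when the other dose groups were left out, and none with library size alone, where 1 was called higher. In these bulk samples fewer cells of a type and less RNA per cell cannot be told apart.

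**Figure D1:**
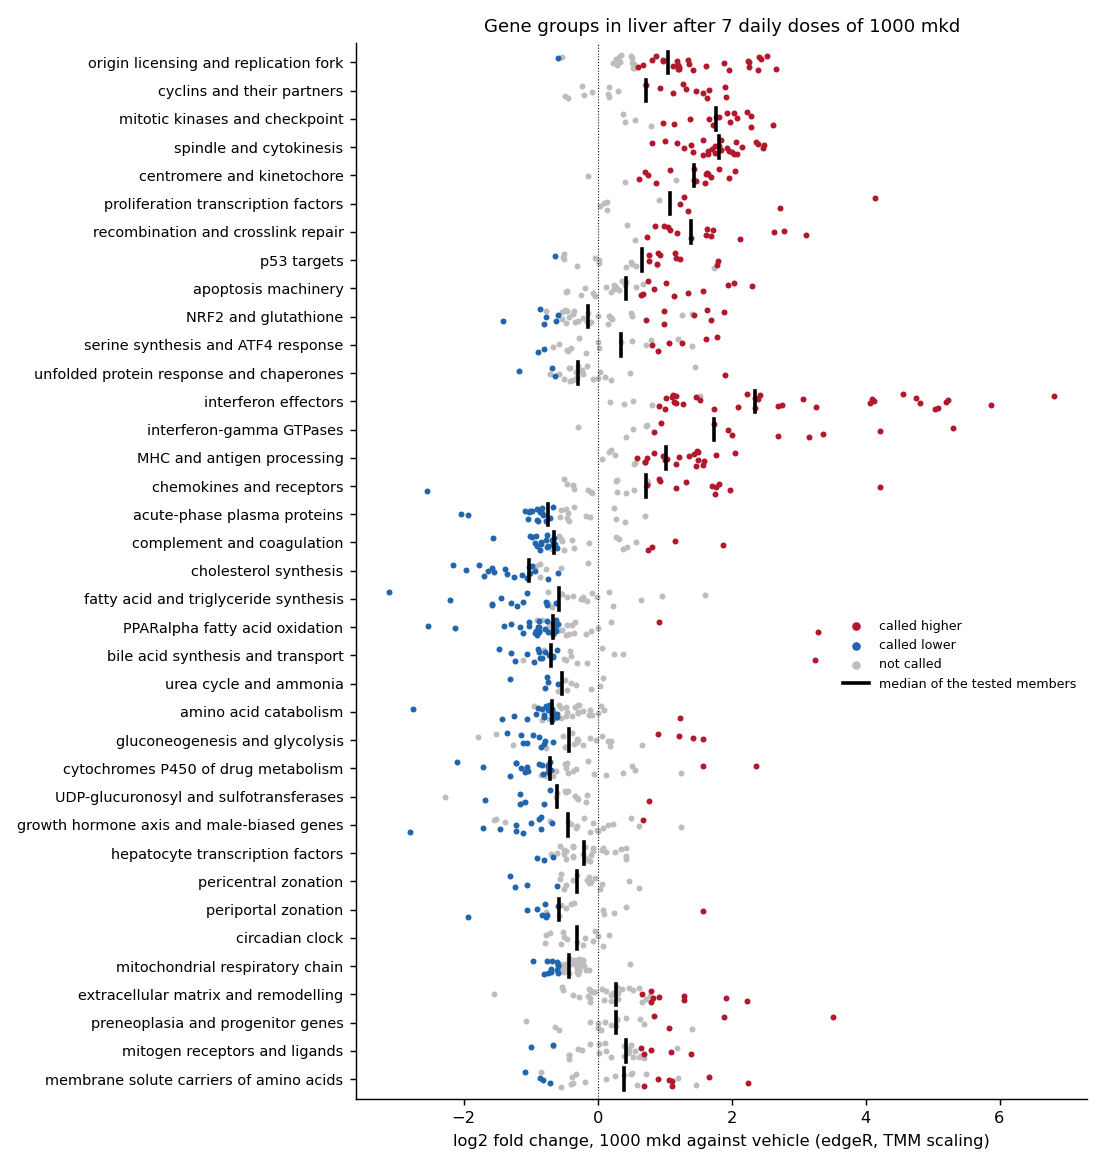
Log2 fold change at 1000 mkd against vehicle (horizontal axis) for every tested member of 37 gene groups (rows), with 5 rats in each arm. Red points were called higher, blue points called lower and grey points not called, and the black bar is the median of the group. All 39 interferon effectors lie to the right of 0 and all 25 genes of cholesterol synthesis lie to the left of it.

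Genes of the interferon response rose, and their median was the highest of the 37 gene groups. Of 39 tested interferon effectors, the antiviral and regulatory genes that interferons induce, 34 were called higher against 14.0% of all genes, and none was called lower. The median log2 fold change of the group was 2.35. Rsad2, which encodes viperin, an enzyme that makes a chain-terminating nucleotide, was read at 2.32, 5.63, 2.34, 3.49 and 4.33 CPM in the controls and at 25.8, 874, 31.7, 959.8 and 154 CPM in treated rats 1 to 5. Treated rats 2 and 4 were far above the others, and the lowest treated rat was still over the highest control. Rsad2 thus had a log2 fold change of 6.82 (SE 0.94, FDR = 9.33e-05 with edgeR). Ifit3, an RNA-response protein that helps to hold back viral replication, went from 1.26 to 5.99 CPM in the controls to 12.6, 507, 16.0, 360.4 and 49.6 CPM. Isg15, a ubiquitin-like protein that is attached to other proteins, went from 2.46 to 28.7 CPM to 33.2, 670.3, 45.3, 852 and 169 CPM, and the highest control, rat 2 at 28.7 CPM, came close to the lowest treated rat. The GTPase gene Mx2 went from 4.10 to 36.1 CPM to 64.6, 1722, 146, 1641 and 253 CPM, again with rats 2 and 4 far above the rest.

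The promoters of these genes are shown because the genes moved together. In 300-base promoters, from 250 bases before to 50 bases after the start of the gene in RefSeq (GRCr8), the core of the interferon response element, written GAAANNGAA, was searched on both strands. It was found in 18 of the 25 promoters that could be matched among the 39 interferon effectors, which is 72.0%. Among the promoters of all tested genes it was found in 624 of 8613, which is 7.24%, and in the whole table of 27457 promoters in 9.50%. The promoters of Rsad2, Ifit3 and Cmpk2 follow, read 5′ to 3′ on the strand of the gene, with the matches in capitals.
Rsad2 (chr6:48788071-48788370, minus strand): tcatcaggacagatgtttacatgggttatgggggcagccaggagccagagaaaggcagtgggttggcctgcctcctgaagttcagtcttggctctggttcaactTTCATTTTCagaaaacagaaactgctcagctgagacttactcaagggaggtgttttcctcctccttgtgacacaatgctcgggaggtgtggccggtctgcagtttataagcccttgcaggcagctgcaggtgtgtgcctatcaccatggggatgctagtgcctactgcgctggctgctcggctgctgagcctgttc
Ifit3 (chr1:241527076-241527375, plus strand): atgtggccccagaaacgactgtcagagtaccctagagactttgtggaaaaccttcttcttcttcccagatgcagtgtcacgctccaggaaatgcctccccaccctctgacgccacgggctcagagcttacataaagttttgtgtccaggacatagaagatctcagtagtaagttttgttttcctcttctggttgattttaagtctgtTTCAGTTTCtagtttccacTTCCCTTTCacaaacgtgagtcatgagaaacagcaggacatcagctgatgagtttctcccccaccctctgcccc
Cmpk2 (chr6:48802600-48802899, plus strand): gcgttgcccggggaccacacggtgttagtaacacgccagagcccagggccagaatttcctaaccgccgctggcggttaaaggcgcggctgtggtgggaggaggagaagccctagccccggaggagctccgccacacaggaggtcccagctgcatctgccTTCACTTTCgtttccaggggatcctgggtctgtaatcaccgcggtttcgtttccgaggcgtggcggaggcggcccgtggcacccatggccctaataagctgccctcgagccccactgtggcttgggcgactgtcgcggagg
Rsad2 has 1 match, which begins 146 bases before the start, and Cmpk2 has 1 that begins 91 bases before it. Ifit3 has 2, beginning 43 and 24 bases before the start. A match is a description of the letters and shows neither a bound site nor a cause. Oasl had no match in this window.

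Cmpk2, a mitochondrial nucleotide kinase that lies next to Rsad2 in the genome, was read at 1.47, 5.88, 2.16, 3.04 and 3.12 CPM in the controls and at 14.0, 206, 19.1, 245 and 45.5 CPM in treated rats 1 to 5. The groups did not overlap, and rats 2 and 4 were again the highest. Its log2 fold change was 5.08 (SE 0.77, FDR = 0.000153 with edgeR). The oligoadenylate synthetase-like genes Oasl and Oasl2, whose relatives sense double-stranded RNA, had log2 fold changes of 4.76 and 4.82. The 2 genes are related, and whether reads were split between them was not tested. Ifit1 behaved differently from the others. It was read at 1.33, 35.4, 0.0756, 11.0 and 0.164 CPM in the controls and at 0.085, 271, 103, 1005 and 200.0 CPM in treated rats 1 to 5, so that treated rat 1 was at the level of the lowest controls. Its log2 fold change was 5.04 (SE 1.78, FDR = 0.0347 with edgeR), and the call was lost in 7 of the 16 alternatives that gave it a value. Of the transcription factors of the pathway, Irf7 had a log2 fold change of 4.09 and was called although its groups overlapped. Irf9 (0.82) and Stat2 (0.18), which act together at the response element, did not pass. The other effectors not called were Rtp4 (1.53), Trim25 (0.53) and Ifi27 (0.39).

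Of 15 tested genes that answer mainly to interferon-gamma, 10 were called higher, with a median log2 fold change of 1.73. Gbp4, a guanylate-binding protein, was read at 0.877, 2.00, 1.17, 1.17 and 1.41 CPM in the controls and at 2.72, 198, 2.75, 39.5 and 20.0 CPM in treated rats 1 to 5, and its log2 fold change was 5.31 (SE 0.89, FDR = 0.000309 with edgeR). Rat 2 stood far above the other treated rats, and rats 1 and 3 were just over the highest control. Its relative Gbp5 went from 2.46 to 4.75 CPM in the controls to 7.34, 57.9, 8.60, 67.1 and 20.6 CPM. Cxcl10, a chemokine that draws activated T cells, went from 2.57 to 4.43 CPM to 13.4, 99.9, 12.2, 127 and 29.9 CPM with no overlap. The core motif was found in 8 of the 14 matched promoters of this group, that of Gbp4 included. In the antigen presentation group 20 of 26 tested genes were called higher, with a median of 1.02. RT1-CE1, a class I gene, went from 0.459 to 1.63 CPM to 2.61, 3.94, 2.84, 4.22 and 3.25 CPM and was apart in all rats. RT1-M3-1, another class I gene, had a log2 fold change of 1.58 (SE 0.29). Class I genes of the RT1 region are near copies of each other and their counts are uncertain one by one. The count of this group was 12 without control rat 1.

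The mean log2 CPM of the 39 interferon effectors was 2.79, 4.57, 3.24, 3.75 and 3.07 in control rats 1 to 5 and 4.43, 7.09, 5.11, 7.11 and 5.85 in treated rats 1 to 5. Control rat 2, the highest of its group, lay above treated rat 1, so the groups overlapped in this score. Treated rats 2 and 4 lay more than 2 log2 units above every control. The ranges at 30, 100 and 300 mkd were 3.10 to 3.41, 3.06 to 4.77 and 3.17 to 5.53, so that 1 rat at 300 mkd exceeded treated rats 1 and 3 at 1000 mkd.

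**Figure D2:**
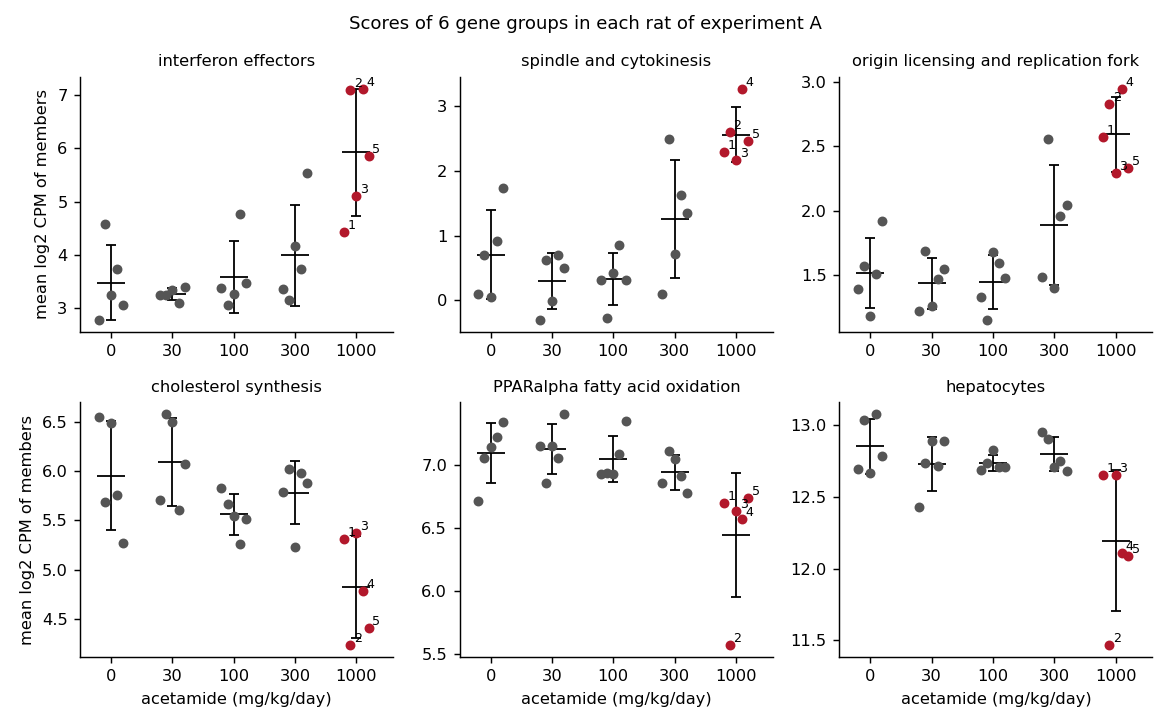
Score of 6 gene groups in each of the 25 rats of experiment A, given as the mean log2 CPM of the tested members (vertical axis) by dose in mg/kg/day (horizontal axis), with 5 rats in each group. Points are rats, bars are the mean and SD, and digits give the replicate number at 1000 mkd. The interferon score of treated rats 2 and 4 was 7.09 and 7.11, and the PPARalpha score of rat 2 was 5.57.

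Markers of some types of immune cells were also called higher. Among T and NK cell markers 10 of 13 tested were called higher, against 14.0% of all genes. Their sum was 33.8 to 40.8 CPM in the controls and 57.5 to 99.0 CPM in the treated rats. Among markers of monocytes and infiltrating myeloid cells 7 of 11 were called higher, with sums of 104 to 191 CPM and 264 to 697 CPM, and among those of Kupffer cells and macrophages 7 of 11, with sums of 611 to 1864 CPM and 1527 to 2714 CPM. Of 4 tested B cell markers none was called with edgeR, and their median of -0.10 became 0.48 with library size alone. Of 3 tested neutrophil markers S100a8 (-1.82) and S100a9 (-1.74), which monocytes also make, were called lower. Control rat 4 had 2.65 and 5.72 CPM of them, against at most 1.17 and 2.21 CPM in the other controls. Both calls were lost without control rat 4, and that of S100a9 was kept in 11 of 17 alternatives. The defining T cell gene Trac, the monocyte gene Ccr2 and the neutrophil genes Mpo and Elane were not among the genes tested. The Kupffer count was 4 without control rat 1, without control rat 3 or without treated rat 5. The sums of the T cell and myeloid lists did not overlap between the groups, and those of the Kupffer list did. The part of these cells in the interferon results was not tested.

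Of 27 tested chemokines and receptors 11 were called higher and 1 lower, against 14.0% and 7.45% of all genes. Cxcl16, a membrane-bound chemokine, was read at 5.47, 8.71, 7.11, 6.02 and 7.38 CPM in the controls and at 15.1, 34.7, 14.8, 29.7 and 18.3 CPM in treated rats 1 to 5, a log2 fold change of 1.70 (SE 0.24, FDR = 9.53e-05 with edgeR). All treated rats were above all controls. The gene called lower was Cxcl1, which draws neutrophils, at a log2 fold change of -2.55 and with groups that overlapped. Control rat 4 had 58.0 CPM of Cxcl1, far above the other controls. The call of Cxcl1 was lost without control rat 4 and was kept in 11 of 17 alternatives. Ccl5, a chemokine of T cells, went from 4.13 to 5.90 CPM to 7.94, 8.49, 6.71, 12.7 and 14.1 CPM. Of 38 tested matrix and remodelling genes 9 were called higher, against 14.0% of all genes. Among them were Mmp12, the macrophage elastase, which went from 0.832 to 4.36 CPM to 8.62, 12.1, 11.0, 11.1 and 5.55 CPM, and Tgfb1, which went from 5.03 to 6.80 CPM to 13.4, 17.1, 10.6, 17.3 and 16.8 CPM. The matrix count fell to 4 without control rat 2, without control rat 3 or without treated rat 2. Of 11 tested endothelial markers 6 were called higher, with sums of 124 to 254 CPM and 215 to 386 CPM, and of 10 stellate cell markers only Pdgfrb was. The endothelial count was 2 or 3 without control rat 1, 2 or 4 or treated rat 2 or 5. The part of these cells in the matrix result was not tested. The main collagen of scars, Col1a1, had a log2 fold change of -0.11 and did not pass. Axl, a receptor kinase by which macrophages take up dead cells, went from 16.5 to 28.9 CPM to 46.1, 49.4, 43.3, 72.8 and 70.2 CPM with no overlap.

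Genes of DNA replication and mitosis formed the other large group of rises. All 27 tested spindle and cytokinesis genes were called higher, as were 15 of 19 mitotic kinases and checkpoint genes, 16 of 19 centromere genes and 26 of 40 genes of origin licensing and the replication fork. Their median log2 fold changes were 1.80, 1.76, 1.44 and 1.05. The only member of these groups called lower was Rpa3, a subunit of the single-strand binding protein, at -0.59. With only genes that had at least 10 counts in every rat, 14 spindle genes, 6 mitotic kinases, 4 centromere genes and 16 replication genes were left as calls, since fewer of them were then tested. The centromere count was 7 without control rat 1 or control rat 3, 8 without treated rat 4, and 10 without control rat 4 or treated rat 2.

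Mybl2, which encodes B-Myb, had the largest change of the proliferation factors. It was read at 0.491, 0.98, 0.756, 0.843 and 0.492 CPM in the controls and at 6.32, 29.7, 5.03, 8.49 and 13.3 CPM in treated rats 1 to 5, with no overlap and a log2 fold change of 4.14 (SE 0.47, FDR = 2.13e-05 with edgeR). Its relative Mybl1 had 2.72, E2f1 had 1.35, Foxm1 had 1.23 and Rbl1 had 1.29, all called, while Myc had 0.91 and did not pass. In the replication group Mcm5, a subunit of the helicase that opens origins, was read at 1.54, 1.67, 0.983, 1.75 and 3.12 CPM in the controls and at 9.27, 15.0, 7.13, 14.6 and 6.62 CPM in the treated rats. The treated rats lay 2-fold or more above the highest control, with rats 2 and 4 highest, and the log2 fold change was 2.53 (SE 0.49, FDR = 0.000778 with edgeR). Uhrf1, which keeps DNA methylation through replication, had 2.67 at levels of 0.0378 to 0.591 CPM in the controls. Mcm3, of the same helicase as Mcm5, went from 1.45 to 3.48 CPM to 11.0, 16.0, 6.56, 17.5 and 7.90 CPM. Pcna, the sliding clamp, had 0.53 (FDR = 0.0257 with edgeR), under the fold needed for a call, although its groups did not overlap.

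Among the mitotic genes, Plk1, the kinase that drives entry into and exit from mitosis, was read at 0.631, 1.20, 0.567, 1.45 and 2.46 CPM in the controls and at 4.65, 6.15, 4.26, 10.7 and 5.35 CPM in treated rats 1 to 5. All treated rats were above all controls and rat 4 was highest. The log2 fold change was 2.29 (SE 0.43, FDR = 0.000616 with edgeR). Espl1, the separase that lets sister chromatids part, had 2.61, and Prc1, which bundles the microtubules of the central spindle, had 2.46. Ccnb1, the mitotic cyclin B1, was read at 1.19, 2.25, 1.29, 4.15 and 9.38 CPM in the controls and at 11.4, 11.3, 10.3, 25.7 and 9.68 CPM in the treated rats. Control rat 5 nearly reached the lowest treated rat, and rat 4 was more than 2-fold above the other treated rats. Mki67, which codes for the proliferation antigen Ki67, went from 2.68 to 13.1 CPM to 18.5, 28.0, 16.3, 47.6 and 24.3 CPM, a log2 fold change of 2.03 (SE 0.49, FDR = 0.00368 with edgeR). Ccna2, cyclin A2 of the S and G2 phases, went from 0.302 to 3.51 CPM to 4.59, 5.15, 4.38, 9.93 and 4.11 CPM, and Ccnd1, the G1 cyclin D1, had 1.63. The checkpoint kinase Ttk went from 0.189 to 2.79 CPM to 3.49, 3.85, 3.73, 9.32 and 4.16 CPM, with control rat 5 apart from the other controls and treated rat 4 apart from the other treated rats. Ndc80 and Nuf2, which tie kinetochores to microtubules, had 2.05 and 1.70, and the spindle genes Kif22 and Ckap2 had 2.40 and 2.48. Cenpw (1.17), Parpbp (0.92) and Chek2 (0.55) did not pass either.

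The promoters of mitotic genes are shown for the cell cycle homology region, searched as TTTGAA or TTTAAA on both strands of the same windows. It was found in 19 of 24 matched promoters of the spindle group (79.2%), in 10 of 14 of the mitotic kinases (71.4%) and in 10 of 15 of the centromere group (66.7%). Of the promoters of all tested genes 1613 of 8613 held it (18.7%), and of the replication group 6 of 33 (18.2%). Matches are in capitals.
Plk1 (chr1:186147408-186147707, plus strand): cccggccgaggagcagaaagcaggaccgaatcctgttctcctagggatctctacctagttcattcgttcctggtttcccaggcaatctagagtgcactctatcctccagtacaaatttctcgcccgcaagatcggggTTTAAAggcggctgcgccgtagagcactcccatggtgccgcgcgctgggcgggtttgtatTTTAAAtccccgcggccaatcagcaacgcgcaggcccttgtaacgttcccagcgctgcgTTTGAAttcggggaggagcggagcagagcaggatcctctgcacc
Prc1 (chr1:143659231-143659530, plus strand): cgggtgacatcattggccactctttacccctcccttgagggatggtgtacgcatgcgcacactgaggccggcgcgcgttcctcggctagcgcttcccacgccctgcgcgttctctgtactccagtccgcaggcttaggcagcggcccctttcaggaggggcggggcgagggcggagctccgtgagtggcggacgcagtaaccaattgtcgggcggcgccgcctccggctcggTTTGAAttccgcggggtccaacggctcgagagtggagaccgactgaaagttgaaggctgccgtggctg
Mki67 (chr1:199952544-199952843, minus strand): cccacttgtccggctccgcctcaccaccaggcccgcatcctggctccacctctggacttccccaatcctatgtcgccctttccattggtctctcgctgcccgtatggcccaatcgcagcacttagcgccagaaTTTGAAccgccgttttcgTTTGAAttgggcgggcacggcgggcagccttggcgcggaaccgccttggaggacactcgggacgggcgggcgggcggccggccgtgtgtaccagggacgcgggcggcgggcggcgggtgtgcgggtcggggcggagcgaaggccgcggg
Plk1 has 3 matches, Prc1 has 1 that begins 18 bases before the start, and Mki67 has 2. Mybl2 has none in its window.

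The mean log2 CPM of the 27 spindle genes was 0.11, 0.70, 0.05, 0.91 and 1.74 in control rats 1 to 5 and 2.30, 2.60, 2.18, 3.27 and 2.46 in treated rats 1 to 5, with no overlap. In contrast to the interferon score, treated rats 1 and 3 were close to rats 2 and 5 in it. The range at 300 mkd was 0.10 to 2.50, and 1 of those rats lay within the range of the 1000 mkd rats. Of 17 tested genes of recombination and crosslink repair 15 were called higher, with a median of 1.40. Bard1, the partner of Brca1, was read at 0.316, 0.399, 0.227, 0.632 and 0.886 CPM in the controls and at 1.13, 1.62, 1.42, 2.40 and 1.52 CPM in treated rats 1 to 5, a log2 fold change of 1.70 (SE 0.43, FDR = 0.00539 with edgeR). Its groups did not overlap. Rad51ap1, a helper of strand exchange, had 1.40, and Ube2t, the conjugating enzyme of the Fanconi pathway, had 2.13. Brca1 itself had 0.56 and Xrcc2 had 0.45, and these 2 were the members not called.

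**Figure D3:**
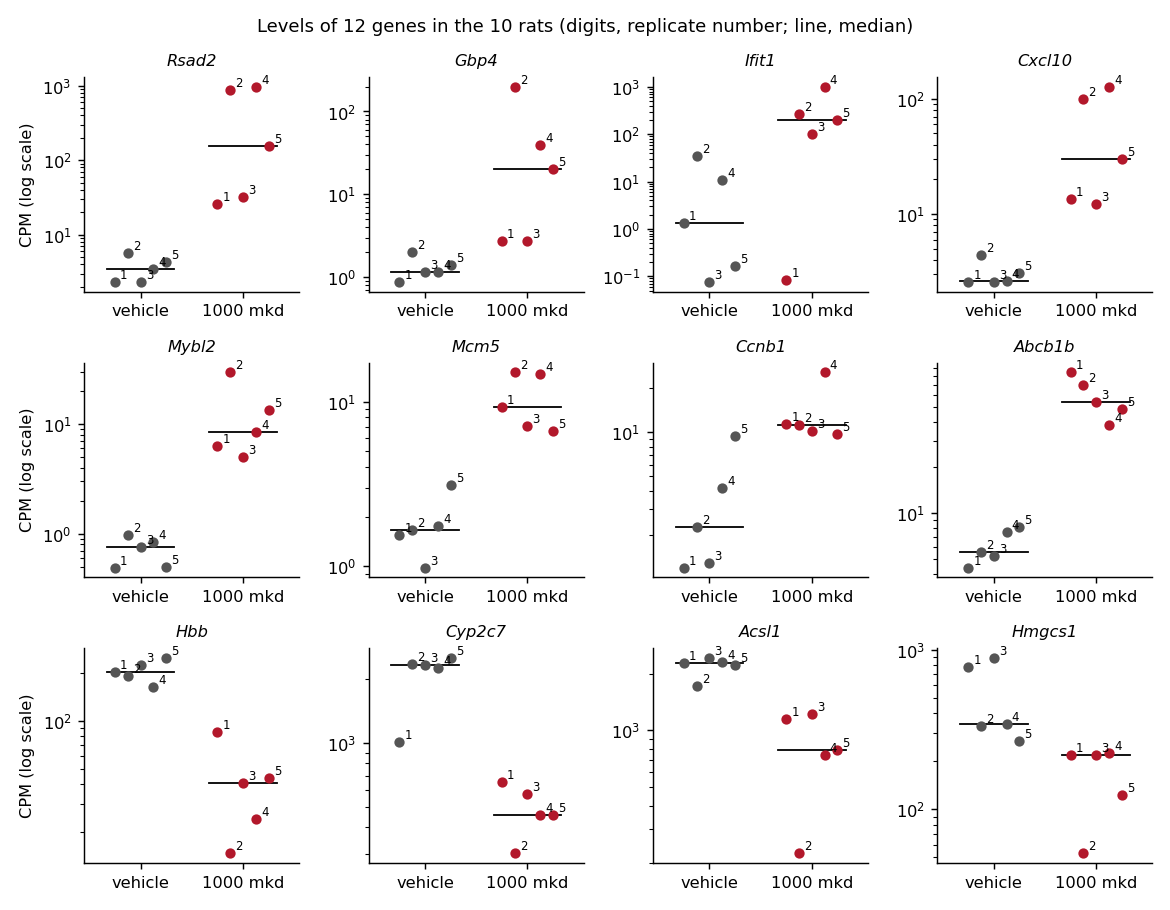
CPM on a log scale (vertical axis) of 12 genes in the 5 vehicle rats (grey) and the 5 rats given 1000 mkd (red). Digits are replicate numbers and lines are medians. Rsad2 and Cxcl10 are highest in treated rats 2 and 4, Abcb1b is raised in all 5 treated rats, and Ifit1 of treated rat 1 lies among the controls.

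Targets of p53 rose in part. Of 24 tested, 10 were called higher and 1 lower, against 14.0% and 7.45% of all genes. Mdm2, the ligase that keeps p53 in check, was read at 23.1, 32.3, 21.2, 25.2 and 25.0 CPM in the controls and at 42.3, 91.2, 42.7, 49.0 and 60.0 CPM in treated rats 1 to 5, with no overlap and a log2 fold change of 1.17 (SE 0.18, FDR = 0.000158 with edgeR). Phlda3 went from 10.1 to 16.0 CPM to 27.7, 81.5, 29.1, 42.6 and 40.2 CPM, and the stress hormone gene Gdf15 from 1.35 to 2.16 CPM to 5.41, 9.37, 3.46, 5.42 and 4.52 CPM. Cdkn1a, which encodes the cell cycle inhibitor p21, was read at 2.10, 4.14, 7.18, 109 and 51.3 CPM in the controls and at 61.7, 191, 69.2, 142 and 116 CPM in the treated rats. Its controls spread so widely that a log2 fold change of 1.74 (SE 1.02, FDR = 0.202 with edgeR) did not pass. The target called lower was Ddb2, a damage sensor, at -0.63. Tnfrsf10b, a death receptor and p53 target, went from 5.37 to 6.69 CPM to 10.2, 22.8, 11.1, 12.3 and 12.4 CPM, with rat 2 highest. Of 28 apoptosis genes 11 were called higher, among them Bax (0.93), Bcl2a1 (2.30) Casp12 (1.57) and Ripk3 (2.04), a kinase of necroptosis that went from 1.33 to 3.48 CPM to 3.83, 20.0, 5.14, 16.1 and 10.1 CPM.

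Among genes of stress and foreign compounds, Abcb1b, an efflux pump of the multidrug resistance family, was read at 4.38, 5.55, 5.26, 7.50 and 8.17 CPM in the controls and at 84.3, 69.5, 53.5, 38.3 and 48.5 CPM in treated rats 1 to 5. Every treated rat was more than 4-fold above the highest control, and rats 1 and 3, which had low interferon values, were not low here. The log2 fold change was 3.25 (SE 0.33), and its FDR of 5.6e-06 with edgeR was the lowest of all genes tested. Of 39 NRF2 and glutathione genes 7 were called higher, against 14.0% of all genes, and 6 lower, against 7.45% (3 lower without treated rat 2 or treated rat 5), and the median was -0.14. Scaled by library size alone, 14 were called higher and 1 lower, and the median was 0.34. Hmox1, heme oxygenase, went from 18.0 to 46.4 CPM to 68.1, 131, 47.4, 96.9 and 59.7 CPM, whereas Nqo1 had 0.15 (FDR = 0.878 with edgeR). Gpx1, the selenium peroxidase, fell by 0.86 on the log2 scale and Sod1 by 0.63. Of 27 unfolded protein response genes 1 was called higher and 3 lower, against 14.0% and 7.45% of all genes. Higher was the small heat shock protein gene Hspb1 (1.90). Lower were the folding and degradation genes Pdia4 (-0.68), Dnajb9 (-0.64) and Edem1 (-1.18). The median of that group was -0.30, or 0.25 with library size alone. No member was called lower without control rat 2 or treated rat 2, 4 or 5, and 6 were without treated rat 3. Of 23 genes of serine synthesis and the ATF4 response 6 were called higher, or 3 without treated rat 2, and 2 lower (Atf5 and Aldh1l2). The shares of all genes were again 14.0% and 7.45%. Of the drug-response markers Cyp1a1 (-0.77), Cyp2b1 (-0.32) and Cyp2b2 (0.12) did not pass, and Cyp1a2 fell by 1.06 and Cyp3a2 by 1.22. The markers of altered foci and fetal liver Gstp1 (FDR = 0.996 with edgeR), Afp (FDR = 0.875) and Gpc3 (FDR = 0.0831) did not pass. In the same group of 20 tested genes 4 were called higher, against 14.0% of all genes. They were the surface protein gene Cd24 (0.84), the matricellular gene Cyr61 (1.07), Abcc3, an efflux pump, which went from 2.00 to 3.74 CPM to 4.90, 31.0, 4.17, 10.6 and 7.92 CPM with rat 2 far above the rest, and the imprinted RNA H19 at 3.51, which overlapped the controls.

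Genes of liver function fell, those of cholesterol synthesis among them. Of 25 tested in that pathway 18 were called lower against 7.45% of all genes, none higher, and the median log2 fold change was -1.03. With library size alone the median was -0.55 and 9 were called. Idi1, the isomerase of isopentenyl diphosphate, was read at 79.0, 40.7, 81.9, 33.9 and 29.3 CPM in the controls and at 18.5, 7.66, 22.9, 12.2 and 6.53 CPM in treated rats 1 to 5. The groups did not overlap, and rats 2 and 5 were lowest. The log2 fold change was -1.97 (SE 0.41, FDR = 0.00141 with edgeR). Hmgcs1, which makes HMG-CoA, was read at 779.7, 334, 886, 341 and 268 CPM in the controls and at 219, 53.1, 218, 224 and 122 CPM in the treated rats, and control rats 1 and 3 lay far above the other controls. Fdps, which makes farnesyl diphosphate, had -1.70 (SE 0.33, FDR = 0.000849 with edgeR). In fatty acid and triglyceride synthesis 12 of 30 were called lower, or 6 with only the compared groups in the fit, and with library size alone 6 were called lower and 4 higher. In this group was Scd1, the desaturase, at -3.11 from 166 to 2118 CPM in the controls to 23.3, 40.4, 278, 99.3 and 46.3 CPM, with overlap.

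Of 50 tested PPARalpha and fatty acid oxidation genes 29 were called lower and 2 higher, with a median of -0.67. Acsl1, which activates long-chain fatty acids, was read at 2273, 1724, 2415, 2296 and 2228 CPM in the controls and at 1154, 224, 1228, 745 and 784 CPM in treated rats 1 to 5. All treated rats were below all controls, and rat 2 was far below the other treated rats. Acsl1 had a log2 fold change of -1.40 (SE 0.26, FDR = 0.000566 with edgeR). Decr1, an enzyme for unsaturated fatty acids, went from 289 to 409 CPM to 215, 49.3, 200.1, 134 and 131 CPM. Ehhadh of peroxisomal oxidation went from 241 to 427 CPM to 161, 27.1, 170.3, 184 and 184 CPM. Fabp1, the liver fatty acid carrier, had -1.21 (FDR = 0.00361 with edgeR). The 2 genes called higher were Cpt1b, the muscle carnitine transferase (0.92), and the acyl-CoA thioesterase Acot1, which went from 0.14 to 1.90 CPM to 1.53, 6.47, 0.562, 7.05 and 12.2 CPM with overlap. The group count was 15 without treated rat 2. With library size alone 3 were called lower and 3 higher, where its median was -0.16.

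Uptake and detoxifying genes of the hepatocyte were also called lower in part, and these counts depended on the scaling. In bile acid synthesis and transport 14 of 26 were called lower, or 9 without treated rat 2, and 1 higher, the pump Abcb1b. Lower were the organic anion transporter Slco1a1 (273 to 449 CPM in the controls, 51.5 to 177 CPM in the treated rats) and Slc10a1, which takes up bile acids from blood (672 to 1039 CPM and 118 to 599 CPM). Cyp7a1, the rate-limiting enzyme of bile acid synthesis, had -0.16 and did not pass. Of 38 cytochromes P450, 17 were called lower and 2 higher, Cyp2c24 (2.36) and Cyp26a1 (1.57), which breaks down retinoic acid. Cyp2c7, which acts on retinoids and drugs, was read at 1011, 2364, 2333, 2267 and 2519.7 CPM in the controls and at 650.1, 301, 577, 457 and 455 CPM in treated rats 1 to 5, a log2 fold change of -2.10 (SE 0.33, FDR = 0.000171 with edgeR). The groups were apart although control rat 1 lay well below the other controls. Cyp2c11, the male-specific form, had -1.71, the epoxygenase Cyp2c23 had -1.31, and Sult2a1, a sulfotransferase of steroids and bile acids, had -1.68. Genes of the Cyp2c and Sult families are close copies, so single values are uncertain. The count of P450 genes called lower was 11 without treated rat 2 or without the other dose groups in the fit. With library size alone 7 P450 genes were called lower and 6 higher, and 4 genes of the bile acid group were called lower and 4 higher.

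Amino acid catabolism had 23 of 50 genes called lower and 1 higher (Acmsd of tryptophan breakdown, 1.23), with Ftcd of histidine breakdown at -1.06 and Mat1a, which makes S-adenosylmethionine, at -0.92. For this group and those that follow, the shares of all genes were 7.45% lower and 14.0% higher. Of 14 genes of the urea cycle and ammonia 5 were called lower, Oat (-1.31), Ass1 (-0.79), Gls2 (-0.75), Otc (-0.74) and Arg1 (-0.60), and the call of Arg1 was lost in 9 of 17 alternatives. In the respiratory chain, with Ndufb5 of complex I at -0.76, 12 of 49 were called lower with a median of -0.42, and library size alone turned that median to 0.10 and left none called lower. Amino acid catabolism then had 3 genes called lower and 2 higher, and the urea cycle 1 each way. With only the compared groups in the fit 9 and 1 were called lower in these 2 groups. Without treated rat 2 the counts were 9 for amino acid catabolism, 2 for the urea cycle and 3 for the respiratory chain, and without treated rat 4 they were 15, 2 and 7. Without treated rat 1 or 3 the respiratory count was 19 or 20. In sugar metabolism 10 of 34 genes were called lower, or 6 without treated rat 2, and 4 higher, against 7.45% and 14.0% of all genes. The median of this group, -0.43, became 0.08 with library size alone. The liver genes Pklr (-1.35), Khk (-0.87) and Fbp1 (-0.79) were called lower, and Pkm (1.58), Hk2 (1.22) and Aldoa (0.91), forms that prevail outside the liver, and Pfkfb3 (1.42) were called higher. Of 15 clock genes none was called with edgeR, their median of -0.30 became 0.29 with library size alone, and the score of that group ranged over 3.67 to 5.01 in the controls and 4.09 to 4.95 in the treated rats.

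Plasma protein genes fell. Of 30 acute-phase and carrier genes 17 were called lower and none higher, and of 36 complement and coagulation genes 19 lower and 4 higher. The shares of all genes were 7.45% lower and 14.0% higher. A1i3, a rat alpha-1-inhibitor, was read at 3322, 4072, 4509.8, 5430.1 and 3449 CPM in the controls and at 1458, 393, 2112, 529 and 569 CPM in treated rats 1 to 5, with no overlap. Its log2 fold change was -2.04 (SE 0.39, FDR = 0.000764 with edgeR). Apoa4, an apolipoprotein that also marks periportal hepatocytes, went from 874 to 1558 CPM to 273, 143, 598, 294 and 263 CPM. The complement genes called higher were C4b and the C1q chains C1qa, C1qb and C1qc, and C1q is made mainly by macrophages. C1qb went from 66.0 to 150.2 CPM to 163, 170.2, 179.7, 263 and 299.7 CPM. With library size alone 2 acute-phase genes were called lower and 3 higher, and 1 complement gene lower and 9 higher, and without treated rat 2 the complement count was 12. The complement count upward was 2 without control rat 1, 3 or 4 or treated rat 4 or 5. C8b, of the membrane attack complex, fell by 1.56 on the log2 scale. Of 30 hepatocyte transcription factors 3 were called lower, against 7.45% of all genes (1 without treated rat 2 and 5 without treated rat 3). They were Thrb (-0.90), Atf5 (-0.80) and the drug sensor Nr1i2 (-0.67), and Hnf4a had -0.36. The median of the 30 factors, -0.20, became 0.36 with library size alone. Likewise the median of 19 pericentral genes went from -0.30 to 0.17 and that of 31 growth hormone axis and male-biased genes from -0.45 to 0.07. Of the pericentral genes 4 were called lower, or 2 without treated rat 2 or treated rat 4, and of 19 periportal genes 8 lower and 1 higher. The periportal genes had 1 called lower and 4 higher with library size alone.

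Among the largest falls of genes whose groups did not overlap were those of red cells. Hbb, a beta globin, was read at 203, 192, 223, 162 and 247 CPM in the controls and at 85.2, 14.8, 40.8, 24.3 and 43.7 CPM in treated rats 1 to 5, with no overlap and rat 2 lowest. The log2 fold change was -2.30 (SE 0.45, FDR = 0.000863 with edgeR). Alas2, a heme synthesis gene of erythroid cells, had -2.39, and the globin copies Hbb-b1 (-2.28) and LOC689064 (-2.40) went with it, although reads can be split among such copies. The erythroid marker list summed to 209.9 to 292 CPM in the controls and 21.4 to 103 CPM in the treated rats, and 3 of its 6 tested genes were called lower, Hbb, Hbb-b1 and Alas2. The erythroid genes Slc4a1 and Ahsp did not pass. Lepr, the leptin receptor, went from 1.69 to 13.9 CPM to 1.16, 0.597, 1.36, 0.4 and 0.318 CPM. Mt2A, a metallothionein that binds zinc, went from 69.3 to 349.7 CPM to 22.4, 46.3, 37.1, 5.15 and 23.5 CPM, and Dpt, a small matrix protein, from 389 to 637 CPM to 198, 68.3, 168, 83.8 and 105 CPM, with a log2 fold change of -2.03 (SE 0.23, FDR = 2.13e-05 with edgeR). LOC100134871, a gene with no name in the table, had -2.43. These genes had no overlap between the groups.

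Of 27 tested transporters of amino acids 7 were called higher and 4 lower, against 14.0% and 7.45% of all genes. Those called lower were Slc6a13, Slc43a1, Slc38a3 and Slc38a4, of which 2 were left without treated rat 2 or treated rat 4. Scaling by library size gave 14 higher and 1 lower. Slc1a5, a glutamine carrier, was read at 1.02, 0.799, 0.416, 0.813 and 0.689 CPM in the controls and at 1.73, 7.19, 1.92, 4.35 and 2.59 CPM in treated rats 1 to 5, with no overlap and a log2 fold change of 2.25 (SE 0.34, FDR = 0.000145 with edgeR). Slc7a8, a carrier of large neutral amino acids, went from 3.40 to 4.21 CPM to 8.56, 14.5, 8.28, 14.8 and 11.2 CPM. Slc38a3, the glutamine carrier of the hepatocyte, had -0.86 with overlap. Of 4 more genes that the study's questions concern, Rnd1, a small GTPase, had 2.75, the heme-binding protein gene Hebp2 had 2.54, Tes had 1.19 and the carbonic anhydrase gene Car3 had -0.97 (FDR = 0.000214, 0.00337, 0.00908 and 0.11 with edgeR).

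The lower doses were compared in the same fit. At 30, 100 and 300 mkd no gene was called with edgeR, and 324, 232 and 218 genes had an unadjusted p under 0.05. Against the 300 mkd rats, 1000 mkd gave 2207 calls (19.5%), with 1458 higher (12.9%) and 749 lower (6.61%), or 1356 in all without treated rat 2. This comparison shares the treated rats with the one against vehicle, so the values are set side by side. Rsad2 had 5.64 against 300 mkd and 6.82 against vehicle, and 26 of 39 interferon effectors were called higher. Of the spindle genes 15 of 27 were called higher and of the centromere genes 2 of 19, against 27 and 16 when set beside vehicle. The median of the spindle group at 300 mkd against vehicle was 0.68, that of the interferon effectors 0.55 and that of the PPARalpha genes -0.12. Ccnb1 had 1.08 against 300 mkd and was not called, while Mybl2 had 2.83 and Abcb1b 2.35 and were.

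In the males of experiment B the same dose on the same day gave no call against their own controls with edgeR (0% of genes), with 531 of 11304 genes at an unadjusted p under 0.05. The difference between the experiments was tested over all genes as an interaction of dose and experiment. Of 11376 genes 0% were called, the lowest FDR was 0.0605, and 2486 genes had an unadjusted p under 0.05. DESeq2 called 646 and a fit of all dose groups of both experiments called 799, so the absence of calls depends on the fit. It also depended on single rats, since 624 genes were called without treated rat 1 of experiment A, 791 without its treated rat 3 and 117 without its control rat 2. Without treated rat 2 of experiment B 688 were called and without its control rat 1 there were 3. Strain and supplier differed between the 2 experiments and cannot be told apart from the experiment itself. Side by side, the median log2 fold change of the spindle genes was 1.80 in experiment A and 1.04 in experiment B. That of the interferon effectors was 2.35 and 0.29, that of cholesterol synthesis -1.03 and -0.09, and that of the PPARalpha genes -0.67 and -0.01. Abcb1b had 3.25 in experiment A and 2.13 in experiment B, and Rsad2 6.82 and 1.39.

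**Figure D4:**
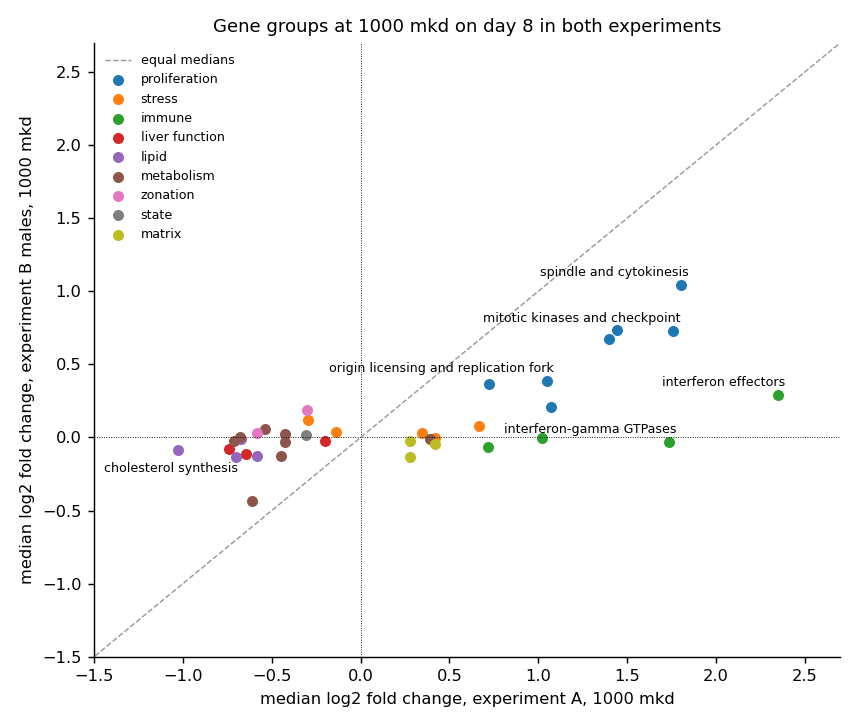
Median log2 fold change at 1000 mkd of 37 gene groups in experiment A (horizontal axis) and in males of experiment B on day 8 (vertical axis), each against its own 5 vehicle rats. Colours give the kind of group and the dashed line marks equal medians. Groups of proliferation lie above 0 on both axes, and the interferon effectors are at 2.35 and 0.29.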

How the data were processed

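Liver RNA of rats given acetamide in water by gavage was sequenced as 75 bp single-end reads from stranded mRNA libraries (TruSeq). The authors trimmed leading and trailing bases with Trimmomatic, aligned reads to Rn6 with Bowtie2 and counted reads on gene models with HTSeq, so the deposited values are raw counts per gene. Versions and the strand setting of HTSeq are not given in the sources used here, so genes that overlap a gene of the other strand are uncertain. Summary lines that name no gene were left out of all steps. They held none of the reads in the table of experiment A and 39.1% to 67.1% in that of experiment B. No column lacked a sample. The other count tables were not used here.

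From the counts, CPM with TMM factors were computed, and genes passing filterByExpr were tested by quasi-likelihood in edgeR 4.0.16 (R 4.3.3), fitting the 25 rats of experiment A together. A gene was called if its level changed 1.5-fold or more and its FDR (Benjamini-Hochberg) did not exceed 0.05. The interaction was fitted on 20 male rats of both experiments, joined by gene symbol. The code was tested on simulated data. No pair of libraries held identical counts, and p-values measure the spread between rats. Scores are means of log2 CPM with a prior count of 2. Alternatives were DESeq2 1.42.0, its size factors with edgeR, dropping the filter, requiring 10 counts or more per rat, a replicate block, a fit of the compared groups alone and omission of single rats. Scaling by library size alone was added after the data were seen.

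The members and the 37 gene and 10 marker lists were chosen with earlier results of these data known. Named genes were the 10 with the largest change each way among called genes with at least 1 CPM on average and all treated rats beyond all controls, up to 3 each way per list by the same rule, and a fixed set taken whatever its values. That set held genes the study names for known modes of action or as examples. It also held genes that the text of the study does not name, such as Cdkn1a, Mdm2, Hmox1, Afp, Gpc3, Cyp7a1, Lepr and Abcb1b. Genes added after their values were seen were those named outside these rules, such as Irf7, Pcna, Ccnd1, Brca1, Cxcl1, Scd1, H19, Cyp2c11, Pklr and Hnf4a, and the members that make up a count of 5 or fewer. Promoters and their coordinates are from RefSeq on GRCr8, not on the build of the counts. They were matched by symbol, and those not matched were left out of the shares. Some genes are not reported here.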

Additional observations from a re-analysis of the deposited data

Results flagged for a closer look

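Single rats that stood apart from the other 4 of their group were sought with Dixon's test in 332 groups of gene values and 94 groups of scores, and 45 and 5 of these passed it. The cut lets through about 1 in 20 groups of independent values with a normal spread. Single genes were taken as CPM without a log, and they were picked and measured in the same rats. Whether these counts exceed chance was therefore not tested. Of the 45 gene values 25 were in treated rats, 11 of them in treated rat 2 and 8 in treated rat 4, and 20 were in controls.

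Treated rat 4 was the highest of its group for genes of mitosis. It had 9.32 CPM of Ttk, 21.8 CPM of Kif22, 4.97 CPM of Ndc80, 6.59 CPM of Nuf2, 25.7 CPM of Ccnb1, 9.93 CPM of Ccna2 and 3.50 CPM of Ube2t, and a centromere score of 2.04. Among the controls, rat 5 was the highest for Ttk at 2.79 CPM and for Ube2t at 1.25 CPM. Treated rat 4 also had 1005 CPM of Ifit1.

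Treated rat 2 was the highest of its group for the guanylate-binding protein Gbp4 (198 CPM), for the p53 targets Phlda3 (81.5 CPM), Tnfrsf10b (22.8 CPM) and Bax (18.2 CPM), for Abcc3 (31.0 CPM), Hspb1 (105 CPM), the imprinted RNA H19 (34.6 CPM), Aldoa (116 CPM) and the erythroid anion exchanger Slc4a1 (3.08 CPM). It was the lowest for Ehhadh (27.1 CPM) and S100a9 (0.228 CPM), and its PPARalpha score was 5.57.

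Other treated rats stood apart in single genes. Rat 5 had 9.00 CPM of Cyp1a1 and 2.76 CPM of E2f1, rat 1 had 283 CPM of Cyp7a1, and rat 3 had 3.34 CPM of Chek2, 6.42 CPM of Cxcl1 and 1058 CPM of the male-specific Cyp2c11.

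Control rat 2 was the highest of its group for interferon genes, with 28.7 CPM of Isg15, 4.75 CPM of Gbp5, 4.43 CPM of Cxcl10, 4.68 CPM of Oasl2 and 137 CPM of Irf7. It also stood apart for Acsl1 (1724 CPM), Arg1 (2839.9 CPM), Dnajb9 (91.4 CPM) and Slc38a4 (1237 CPM), and in the monocyte score (2.91) and the mitogen receptor score (3.24).

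Control rat 4 was the highest of its group for the neutrophil genes S100a8 (2.65 CPM) and S100a9 (5.72 CPM), with a neutrophil score of 1.25, and for Cxcl1 (58.0 CPM), Myc (23.6 CPM), Mt2A (349.7 CPM) and Slc7a8 (4.21 CPM). Control rat 5 had 13.9 CPM of Lepr and 1.90 CPM of Acot1, and control rat 1 had 1011 CPM of Cyp2c7. The high control values for S100a8, S100a9, Cxcl1, Mt2A and Lepr bear on falls given above for the same genes, and no cause was tested.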

How the results depend on the processing

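The 2424 genes called at 1000 mkd were 1655 to 2897 when 1 rat was left out, lowest without treated rat 2, and DESeq2 called 2390 of them. With library size alone the count was 5290 (5140 higher, 150 lower), and against 300 mkd it was 5320 (5185 higher, 135 lower) in place of 2207. Against 300 mkd it ranged from 1356 to 2718 when 1 rat was left out. The interaction with experiment, with 0 calls in the edgeR test, had 646 with DESeq2, 799 with all dose groups in the fit, 1462 with library size alone and 0 to 791 when 1 rat was left out. Called list members stayed between 336 and 534 of a reported 473, but those called lower went from 211 to 47 with library size alone, and the cause was not tested. Replicate numbers did not pair the rats, since deviations of same-numbered rats correlated at 0.20, -0.09, -0.01, 0.17 and -0.07. With the replicate block the counts were 2440, 2298 against 300 mkd and 490 for the interaction. Of 166 genes named or examined, 138 were called, 94 kept the call under all 17 alternatives or as many as gave a value, 44 lost it under at least 1, and 0 changed sign. The effect of depth was not tested.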

Other observations

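The genes that follow stand in none of the lists above and were picked after their values were seen, so they stand for no group. Slfn3, Uba7, Lgals3bp, Siglec1 and Spats2l, which interferons are known to induce, had log2 fold changes of 2.69, 2.95, 3.05, 2.31 and 3.02. Lama5, a laminin chain of basement membranes, was read at 3.79, 1.60, 3.02, 2.98 and 3.54 CPM in the controls and at 16.5, 61.5, 8.19, 21.5 and 29.9 CPM in treated rats 1 to 5, a log2 fold change of 3.20 (SE 0.46, FDR = 0.000116 with edgeR).

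Among the genes called lower, also picked after their values were seen, were the glycine conjugation genes Glyat (-1.24), Glyatl1 (-1.54) and Glyatl2 (-1.40), the plasma protease inhibitors Mug1 (-1.37), Mug2 (-1.28), Pzp (-1.39), Serpina4 (-1.42) and Serpina3c (-1.28), the paraoxonase Pon1 (-1.09) and the metallothionein Mt1a (-1.98), a near copy of Mt2A. Glyat, which joins glycine to acyl groups, was read at 282, 219, 176, 148 and 186 CPM in the controls and at 116, 32.0, 143, 80.4 and 55.9 CPM in treated rats 1 to 5.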
